A study of Mus musculus with 46 samples.

Results

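Rbbp5 knockout (KO) inner cell masses (ICM) did not form a uniform set. At a level of 1 FPKM or more, 3 of the 7 KO libraries from embryonic day (E) 3.5 detected fewer than 4000 genes and the other 4 detected more. The 3 few-gene libraries were KO replicates 1, 4 and 6, with 3628, 3642 and 3883 genes. The 4 many-gene libraries were replicates 2, 3, 5 and 7, with 4882, 4522, 5136 and 5022 genes. The line of 4000 genes ran between 3883 in KO 6 and 4522 in KO 3. The 7 wild-type (WT) ICM libraries had 5110 to 5718 genes. FPKM scale a gene's fragments by its transcript's length and the library's mapped total, and differences are on the log2(FPKM + 1) scale, which understates the change of low genes.

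Each ICM library came from a single mouse embryo. The KO was made in zygotes, either from wild-type parents with Cas9 mRNA and a guide RNA against Rbbp5, or carrying Rbbp5 flox/flox alleles with Cre mRNA. The labels used here do not say which route made a given library, nor whether the WT embryos were injected. Whether a KO embryo was a mosaic of edited and unedited cells was not tested. Embryos grew in KSOM medium to the blastocyst, the ICM was isolated by immunosurgery, which kills the outer cells, and cDNA was made by SMART-seq2. The series holds 46 samples, 33 of them RNA libraries. Also used here were 3 WT and 3 KO libraries of epiblast dissected from single E5.5 embryos, which had been transferred to foster mothers and which the split did not use. The KO libraries labelled E5.5 epiblast carried markers of the trophectoderm, a different lineage, at high levels, as given with their results. Rbbp5 itself was not analysed here, so no library's genotype label was checked against the targeted gene.

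Rbbp5 is a core subunit of the enzymes that put methyl groups on lysine 4 of histone H3 (H3K4), together with Wdr5, Ash2l and Dpy30. H3K4 trimethylation marks the promoters of active genes. The ICM is the group of cells inside the blastocyst that gives the epiblast, which forms the fetus, and the primitive endoderm, which lines the yolk sac.

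The split was a matter of breadth and not of how many genes reached the highest level. Few-gene and many-gene libraries were separated in the same way at 0.1, 1, 5, 10, 50 and 100 FPKM. At 500 FPKM they were not: the few-gene libraries had 135, 144 and 147 genes at that level and the many-gene libraries 131 to 138, while WT had 93 to 124. The 10 highest genes held 14.4% to 17.9% of summed FPKM in the few-gene libraries, 10.7% to 14.95% in the many-gene libraries and 9.92% to 12.6% in WT.

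FPKM hide sequencing depth. Where low values move in steps of a single fragment, the steps can give an estimate of relative depth. Not all values do so: Nit1 was listed at 1.39e-12 FPKM in KO 4. With the median library set to 1, the few-gene libraries KO 1, 4 and 6 stood at 1.05, 1.003 and 0.93 and the many-gene libraries KO 2, 3, 5 and 7 at 0.83, 1.05, 0.93 and 0.88. WT stood at 0.96 to 1.08. By this estimate the few-gene and many-gene libraries overlapped in depth. The part of depth in the split was not tested. The estimate rests on 881 of 13853 pairs of low values that matched within 0.02 on the log2 scale, 8.39 times the number in windows elsewhere, and the next best solution for each library was off by a whole factor of 2.

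**Figure D1:**
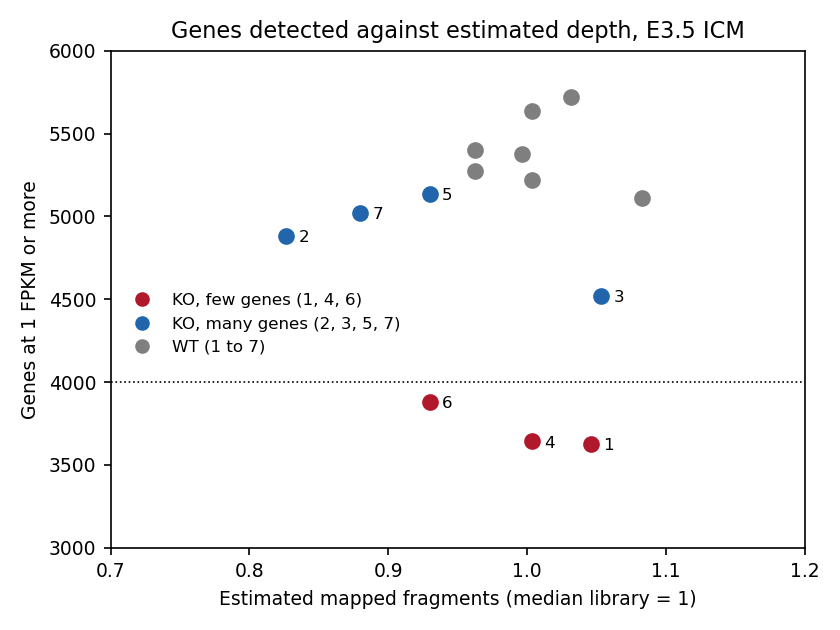
Genes at 1 FPKM or more (y) against estimated mapped fragments relative to the median library (x) in the 14 E3.5 ICM libraries, with KO replicate numbers beside the points and a dotted line at 4000 genes. The few-gene libraries lie at 0.93 to 1.05 on the depth axis and the many-gene libraries at 0.83 to 1.05.

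All 3 few-gene embryos were male by Y-linked transcripts, as were KO 2 and KO 5, while KO 3 and KO 7 were female. Xist, the RNA that coats the silent X, was at 37.0 and 26.0 FPKM in KO 3 and KO 7 and at no more than 0.056 in the other 5 KO libraries. Eif2s3y, a Y-linked translation factor, was at 5.37 FPKM in KO 1, against 90.6 and 100.1 in KO 4 and KO 6 and 81.9 and 61.0 in KO 2 and KO 5. Among the 5 male libraries alone the median difference over all genes, few minus many on the log2 scale, was -0.76, against -0.64 over all 7.

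Genes were missing from the few-gene libraries in relation to their level in WT. Of 1119 genes with a WT mean of 10 to 25 FPKM, KO 1, 4 and 6 had 77.0%, 77.5% and 83.1% at 1 FPKM or more, and the many-gene libraries 94.9% to 99.5%. Among 991 genes with a WT mean of 5 to 10 FPKM, the few-gene libraries kept 55.8%, 57.6% and 63.6% and the many-gene libraries 82.1% to 95.6%. At 250 FPKM or more, all 242 genes were detected in each of the 7 KO libraries. The splitting rule itself fixed that the few-gene libraries detect fewer genes at 1 FPKM, and WT levels set the bins, so these shares only describe at which levels the missing genes lay.

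**Figure D2:**
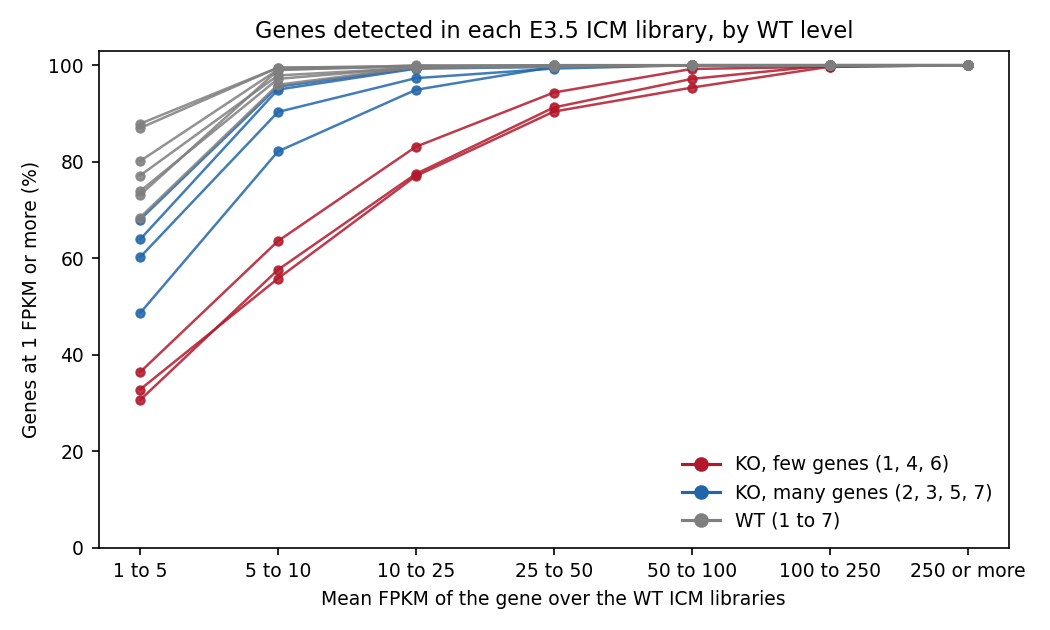
Percent of genes at 1 FPKM or more (y) in each E3.5 ICM library, by the mean FPKM of the gene over WT (x, 7 bins). The few-gene libraries run below the other libraries up to a WT mean of 100 FPKM, and KO 3, the many-gene library nearest the dividing line, runs lowest of the other 4 KO libraries up to 25 FPKM.

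Most genes missing from any few-gene library were missing from 1 of them only. Of 1542 genes with a WT mean of at least 25 FPKM, 75 were under 1 FPKM in KO 1, 62 in KO 4 and 37 in KO 6, against 0 to 4 in each many-gene library and 0 to 2 in each WT library. Of the 143 genes missing in any few-gene library, 115 (80.4%) were missing in 1 of them only, 25 in 2 of them, and 3 in all 3. Those 3, Fam151a, Pex16 and Pgam2, are named after their values were seen. Pex16 is a peroxisome assembly factor and Pgam2 the muscle form of phosphoglycerate mutase. Of the 75 genes missing in KO 1, 44 stood at 10 FPKM or more in KO 4 or KO 6. KO 1 and KO 4 shared 14 missing genes, KO 1 and KO 6 shared 11, and KO 4 and KO 6 shared 9. Whether these losses coincided more often than by chance was not tested. All 4 many-gene libraries had 138 of the 143 genes at 1 FPKM or more.

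**Figure D3:**
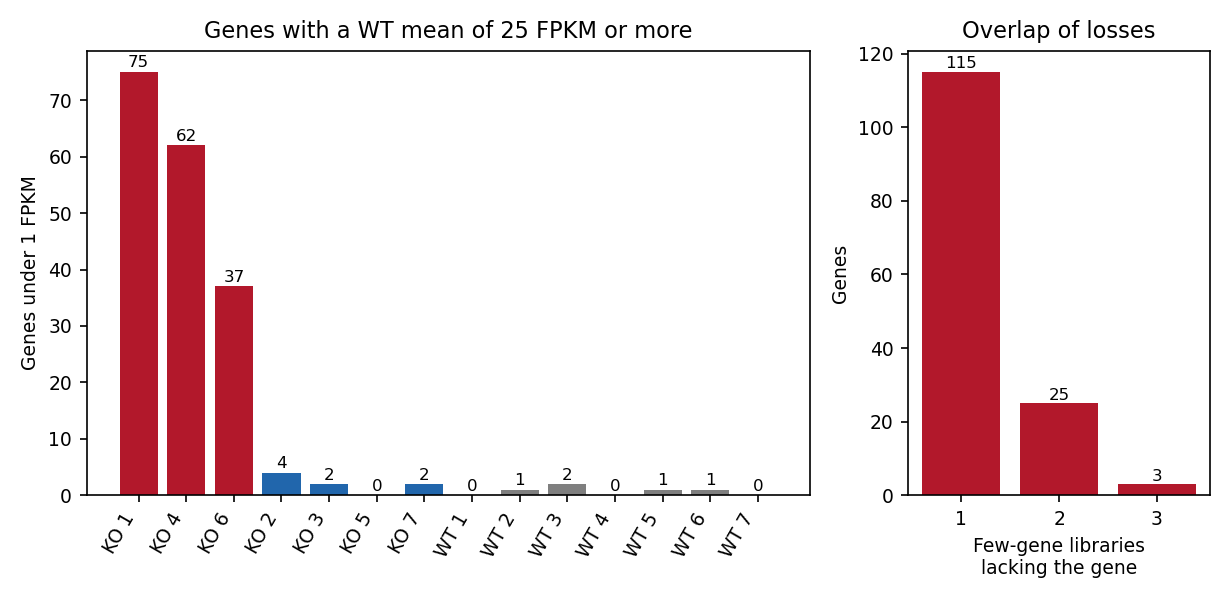
Left, number of genes under 1 FPKM in each E3.5 ICM library among 1542 genes with a WT mean of at least 25 FPKM; right, how many few-gene libraries lacked each of the 143 genes missing in any of them. Bars start at 0; 115 genes were missing in 1 few-gene library only and 3 in all 3.

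Rank correlations across 5443 genes are given as descriptions of libraries that share these genes and no more. Spearman's rho was 0.69 to 0.73 between few-gene libraries, 0.70 to 0.79 between few-gene and many-gene libraries, and 0.81 to 0.89 between many-gene libraries. WT libraries correlated with each other at 0.83 to 0.93. The median SD of log2(FPKM + 1) over tested genes was 0.79 in the few-gene set, 0.56 in the many-gene set and 0.50 in WT. By this measure the few-gene embryos resembled each other no more closely than they resembled the many-gene embryos.

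Many genes lay lower and few lay higher in the few-gene libraries. Of 5003 genes averaging 1 FPKM or more over the 7 KO libraries, 978 (19.5%) had all 3 few-gene values below all 4 many-gene values, and 97 (1.94%) had all 3 above. These are descriptions: the libraries were selected on their number of genes at 1 FPKM or more, so no test was made between the sets. The median difference over the 5003 genes was -0.64, with an SD of 0.16 between libraries. Relative to the WT mean, the median gene was 0.99 lower in the few-gene set and 0.29 lower in the many-gene set, on the log2 scale. Scaling removes most of the shift, which was -0.02 after quantile normalization and -0.17 after median ratio scaling. The counts below and above were then 399 and 354, and 541 and 363. Leaving out a library leaves fewer values to keep the sets apart, and the counts were 1552 and 243 without KO 6. The higher genes numbered 186, 234 and 150 without KO 1, KO 4 and KO 2. Directions below hold as measured. For each list, its unscaled counts are to be read against the 19.5% below and 1.94% above over all genes. Its counts under quantile normalization and then median ratio scaling are given as the scaled counts. Those are to be read against 399 below and 354 above, then 541 below and 363 above, of the 5003 genes.

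The shortfall was graded inside each set. The median gene was 0.96, 1.10 and 0.89 below the WT mean in KO 1, 4 and 6, and 0.22, 0.55, 0.07 and 0.21 below it in KO 2, 3, 5 and 7. KO 3 was the many-gene library closest to the few-gene values for 439 of the 978 lower genes (44.9%), KO 2 for 223, KO 7 for 174 and KO 5 for 142. The many-gene mean of the lower genes lay within the WT range for 735 of 978, about the share over all tested genes (3725 of 5003). Their few-gene mean lay under the lowest WT library for 877, against 2389 of the 5003. Of the 97 higher genes, 61 already had a many-gene mean above the highest WT library, against 406 of the 5003, and 89 had such a few-gene mean, against 555.

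Some names were not considered next: predicted and clone names, pseudogenes, small RNAs, ribosomal protein genes, Xist and Y-linked genes. Among the rest, only P2rx4, an ATP-gated ion channel, was under 1 FPKM in all 3 few-gene libraries and at 10 or more in all 4 many-gene libraries. Its FPKM were 0.373, 0.494 and 0.411 in KO 1, 4 and 6 and 10.9, 36.2, 20.003 and 29.0 in KO 2, 3, 5 and 7. WT ran from 9.04 to 30.5 with a median of 25.2, so that KO 2, 5 and 7 sat inside the WT range, KO 3 just above it and the few-gene embryos far under it. Aurka, a kinase that builds the mitotic spindle, had 1.13, 6.64 and 9.80 FPKM in the few-gene libraries and 52.1, 26.5, 58.2 and 57.1 in the many-gene libraries. WT had 50.2 to 134.0 with a median of 109.9. KO 2, 5 and 7 thus sat at the low end of the WT range, KO 3 under it and the few-gene embryos further under it. In the opposite direction, Ndufb2, an accessory subunit of respiratory complex I, had 1237, 933 and 896 FPKM in KO 1, 4 and 6 and 646, 583, 445 and 314 in KO 2, 3, 5 and 7. WT had 142.4 to 329.4, and only KO 7 of the KO libraries fell inside that range. Lsm5, a subunit of the ring that binds the ends of U6 RNA and of messenger RNAs on their way to decay, had 724, 635 and 532 FPKM against 304, 372, 277 and 192. WT had 158.1 to 226.0, and KO 7 was again the one KO library inside it.

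The promoter windows of these 4 genes are shown because the genes span the range of the split, from lost to raised, and because H3K4 trimethylation sits at CpG-rich starts of genes. Each runs 5′ to 3′ over 300 bases around a start site, from RefSeq on GRCm38.p6 (mm10), with CG dinucleotides in capitals.
P2rx4: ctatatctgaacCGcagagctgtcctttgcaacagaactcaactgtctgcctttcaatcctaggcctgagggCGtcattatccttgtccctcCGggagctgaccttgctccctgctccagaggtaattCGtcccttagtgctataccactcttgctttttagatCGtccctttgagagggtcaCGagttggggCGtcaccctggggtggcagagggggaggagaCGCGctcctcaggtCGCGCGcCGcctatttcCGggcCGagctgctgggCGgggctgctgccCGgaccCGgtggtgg
Aurka: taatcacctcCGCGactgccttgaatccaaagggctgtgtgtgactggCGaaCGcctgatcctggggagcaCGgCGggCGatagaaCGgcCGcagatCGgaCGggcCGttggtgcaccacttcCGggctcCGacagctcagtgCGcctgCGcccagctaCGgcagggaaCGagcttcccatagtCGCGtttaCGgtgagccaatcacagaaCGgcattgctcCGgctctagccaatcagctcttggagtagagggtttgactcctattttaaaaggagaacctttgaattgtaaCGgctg
Ndufb2: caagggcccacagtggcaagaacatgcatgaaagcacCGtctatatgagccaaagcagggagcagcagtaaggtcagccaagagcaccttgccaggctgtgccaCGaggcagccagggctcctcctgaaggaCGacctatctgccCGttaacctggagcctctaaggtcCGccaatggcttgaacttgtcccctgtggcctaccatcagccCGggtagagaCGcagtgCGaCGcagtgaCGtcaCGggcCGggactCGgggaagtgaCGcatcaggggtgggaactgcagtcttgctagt
Lsm5: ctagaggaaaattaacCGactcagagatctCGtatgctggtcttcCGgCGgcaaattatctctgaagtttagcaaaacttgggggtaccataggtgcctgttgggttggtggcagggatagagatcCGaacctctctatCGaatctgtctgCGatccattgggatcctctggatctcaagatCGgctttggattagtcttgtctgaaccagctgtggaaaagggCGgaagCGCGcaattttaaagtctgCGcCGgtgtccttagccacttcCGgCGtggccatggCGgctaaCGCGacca
The P2rx4 window is chr5:122707294-122707593 on the plus strand, with 18 CG dinucleotides. The Aurka window is chr2:172370521-172370820 on the minus strand, with 24. The Ndufb2 window is chr6:39592315-39592614 on the plus strand, with 14, and the Lsm5 window is chr6:56704650-56704949 on the minus strand, with 18. The median promoter of 22862 genes with a single entry had 7 and the median of the 3065 tested genes so matched had 22. Only 61.3% of the 5003 tested genes had a single entry, so a comparison of promoter content between lower and higher genes is void and none is given.

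**Figure D4:**
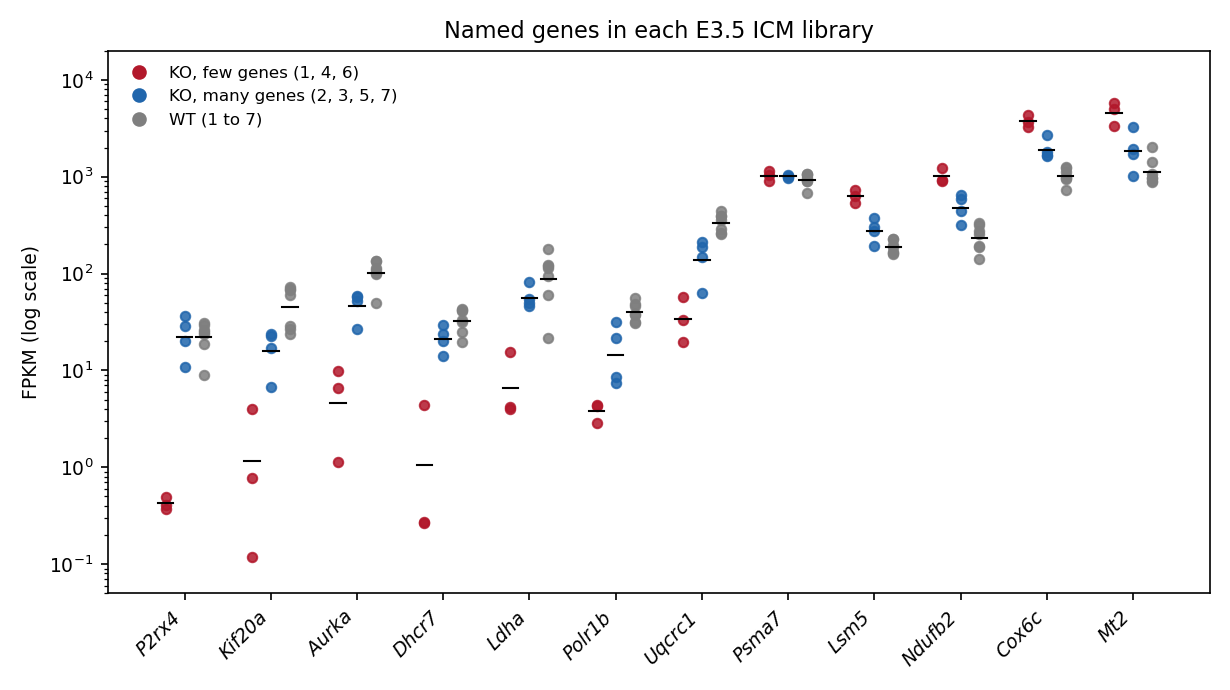
FPKM on a log scale (y) of 12 named genes (x) in each E3.5 ICM library, with a bar at the mean of log2(FPKM + 1) of each set. From P2rx4 to Uqcrc1 the 3 few-gene points lie below the 4 many-gene points, for Psma7 they overlap, and from Lsm5 to Mt2 they lie above.

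Energy metabolism divided by the kind of gene. Small and accessory subunits of the respiratory chain, short proteins around the catalytic cores, lay higher in the few-gene libraries: 25 of 43 tested members were above and 0 below, with a median difference of 0.56 beside -0.64 over all genes. The scaled counts were 20 and 39 above, with 0 below in both. Cox6c, a small subunit of cytochrome c oxidase, had 3639, 4367 and 3252 FPKM in the few-gene libraries and 1812, 2671, 1693 and 1624 in the many-gene libraries. WT had 731.7 to 1274, and no KO library overlapped it. Cox7c, another such subunit, had 2004, 2466 and 1835 FPKM against 1346, 1210, 970 and 980. Ndufa3 of complex I had 1426, 1406 and 1621 against 482, 924, 751 and 664. Many of these short genes have processed pseudogene copies, and how reads that fit more than 1 copy were counted is not stated in the labels used here.

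The core subunits of the same chain, listed together with anchors of complex II, had 5 of 17 below and 0 above. The list median was -0.63, close to that of all genes. Their scaled counts were 3 below and 0 above, then 2 below and 3 above, with medians of -0.13 and -0.06, so that the balance of the calls turned under median ratio scaling. Uqcrc1, a core protein of complex III, had 57.6, 19.9 and 33.2 FPKM in KO 1, 4 and 6, 148.8, 62.8, 213.9 and 190.1 in KO 2, 3, 5 and 7, and 257.0 to 439.4 in WT. The 3 sets did not overlap and stood in that order. Sdhd, an anchor of complex II, had 99.1, 74.1 and 87.1 FPKM against 264.8, 140.7, 256.1 and 276.9, with WT at 89.8 to 326.9. Here the many-gene embryos were at WT levels. Cyc1, the cytochrome c1 of complex III, had 62.1, 54.7 and 63.1 FPKM against 145.8, 93.4, 153.1 and 151.1.

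Glucose uptake and glycolysis had the lowest median of the lists tested, -1.85 over 10 genes, with 3 below and 0 above. Both scalings left these counts as they were, with medians of -1.42 and -1.43. Ldha, which turns pyruvate into lactate, had 15.5, 4.19 and 3.99 FPKM in the few-gene libraries and 46.6, 81.6, 49.3 and 54.6 in the many-gene libraries, with WT at 21.9 to 179.3. Pgam1, the phosphoglycerate mutase of most tissues, had 39.7, 16.9 and 49.2 FPKM against 156.6, 89.5, 185.5 and 157.1. Pgam2 was at 0.146 FPKM in KO 1 and listed at 0 in KO 4 and KO 6, against 17.0, 51.0, 9.49 and 28.4. Slc2a1, a glucose transporter, overlapped between the sets because KO 3 had only 5.09 FPKM.

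Lysosomal genes followed the same direction, with 9 of 20 below, 0 above and a median of -1.23, and scaled counts of 7 and 5 below. Ctsa, a carboxypeptidase, had 2.97, 34.2 and 20.5 FPKM in the few-gene libraries and 91.4, 112.0, 122.2 and 140.0 in the many-gene libraries. Of the 15 tested genes of cholesterol synthesis and uptake, 5 were below and 0 above, with a median of -1.12, and the scaled counts were 4 and 4 below. Dhcr7, the last enzyme of cholesterol synthesis, had 0.263, 0.274 and 4.39 FPKM against 20.2, 14.2, 29.2 and 23.9, while WT had 19.7 to 43.5.

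Of 28 tested mitosis genes 10 were below and 0 above (median -0.80), with scaled counts of 6 below and 1 above in both. Of 40 replication genes 7 were below and 0 above (median -1.0002), a share no larger than that over all genes, and the scaled counts were 3 and 2 below. Kif20a, a kinesin needed for cytokinesis, had 0.119, 4.02 and 0.776 FPKM in KO 1, 4 and 6, against 17.0, 6.80, 22.6 and 23.8 in KO 2, 3, 5 and 7 and 23.6 to 72.9 in WT. Aurkb, the kinase of the chromosomal passenger complex, had 0.357, 0.057 and 3.07 FPKM against 49.6, 9.58, 32.4 and 25.8. Its partner Birc5 did not follow, with 445, 361 and 517 FPKM against 457, 495, 461 and 489. Pole, the leading-strand polymerase, was nearly absent from a pair of few-gene embryos and not from the other. It had 0.0274 and 0.189 FPKM in KO 1 and KO 4 but 19.9 in KO 6, inside the many-gene span of 10.5 to 21.8.

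The machinery that makes proteins was mixed. Of 24 genes of ribosome biogenesis and RNA polymerase I, 8 were below and 0 above, with a median of -0.70 that became 0.02 after quantile normalization. The scaled counts were 1 below and 4 above, then 1 below and 2 above. Polr1b, the second largest subunit of RNA polymerase I, had 4.29, 4.37 and 2.87 FPKM in the few-gene libraries and 8.50, 7.38, 21.6 and 31.3 in the many-gene libraries, with WT at 30.9 to 56.2. Of 39 translation initiation factors, 12 were below and 2 above (median -0.61). The scaled counts were 4 below and 3 above, then 2 below and 4 above, with medians of -0.20 and -0.02. Aminoacyl-tRNA synthetases, which charge tRNAs, had 1 of 19 below and a median of -0.77, so that the sets overlapped for nearly all of them. Farsb, the one apart, had 21.5, 12.2 and 26.1 FPKM against 58.4, 56.9, 115.7 and 93.7. Proteasome subunits had 5 of 43 below and 2 above with a median of -0.39, which became 0.21 after median ratio scaling, with 1 below and 10 above. Psma7, a subunit of the proteasome core, was among the 6 steadiest strong genes: 1031, 904 and 1154 FPKM in the few-gene set, 1048, 1007, 967 and 1004 in the many-gene set and 677 to 1068 in WT. Its difference of 0.03 became -0.30 after quantile normalization and 0.64 after median ratio scaling.

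Genes of RNA polymerase II, its general factors and Mediator had 9 of 60 below and 2 above, with a median of -0.45 that became 0.11 and 0.13 under the 2 scalings, with 4 below and 4 above, then 3 below and 6 above. Large spliceosome proteins and splicing regulators had 2 of 28 below, and their median of -0.28 likewise turned positive under both (0.18 and 0.26), with 3 and then 5 above. The Sm and LSm proteins, which form the small rings of the splicing particles, had 2 of 8 above and 0 below, Lsm5 and Lsm6. Lsm6 had 307.8, 345.0 and 241.3 FPKM against 174.9, 177.7, 205.3 and 159.4. Lsm7 overlapped, with 599, 824 and 582 FPKM against 635, 535, 470 and 451, and all 7 KO libraries were above the WT range of 215.7 to 314.7.

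Lists of stress and death genes are short, and with 1.94% of all genes above, a count of 0 is near the overall share. None of 15 tested p53 targets, 13 apoptosis genes, 19 chaperone and heat shock genes or 11 genes of serine synthesis and the amino acid stress response lay above, while 6, 3, 6 and 1 lay below. Their medians were -0.98, -1.14, -0.98 and -1.12. Quantile normalization left 2, 3, 1 and 0 below, with 1 p53 target and 1 heat shock gene above, and median ratio scaling left 2, 3, 2 and 0 below, with 1 apoptosis and 1 heat shock gene above. Against 19.5% over all genes, the apoptosis and amino acid stress lists were near or under the overall share from the start. Btg2, a p53 target that slows division, had 7.58, 6.78 and 3.59 FPKM against 10.9, 25.1, 15.1 and 27.9. Diablo, which frees caspases from their inhibitors, had 34.2, 45.7 and 54.4 FPKM against 91.5, 91.9, 108.8 and 110.8. Hsf1, the heat shock transcription factor, was listed at 0 in KO 1 and had 2.65 and 3.13 FPKM in KO 4 and KO 6, against 3.63, 7.62, 19.98 and 20.6. Mt2, a metal-binding metallothionein, was an exception among stress-linked genes, with 5061, 5821 and 3312 FPKM in the few-gene libraries, 1938, 3275, 1020 and 1728 in the many-gene libraries and 891 to 2010 in WT. The list of metallothioneins and oxidative stress genes had 4 of 22 below and 2 above, with a median of -0.03 that became 0.10 and 0.51 under the scalings.

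Rbbp5's own partners were looked at next. Of 10 tested genes of H3K4 methyltransferase complexes, 5 were below and 0 above, with a median of -1.01. Quantile normalization left 0 below and 0 above (median -0.42), and median ratio scaling 3 below and 0 above (median -0.56), so the count depended on the scaling. Ash2l had 14.5, 7.56 and 12.1 FPKM in KO 1, 4 and 6, 19.4, 16.5, 37.3 and 38.5 in KO 2, 3, 5 and 7 and 44.2 to 110.6 in WT, 3 spans that did not meet. Hcfc1, a partner of the SET1 and MLL complexes, had 5.08, 4.204 and 4.85 FPKM against 11.5, 5.45, 15.9 and 12.6, with WT at 16.7 to 31.4. Wdr5 overlapped, since KO 6 had 23.1 FPKM, above KO 2 and KO 7 at 14.8 and 18.2. Among imprinted genes, expressed from a single parental copy, 4 of 12 were below and 0 above (median -1.40), with scaled counts of 2 below and 1 above, then 3 below and 1 above. H13, a signal peptide peptidase, had 10.6, 13.2 and 4.34 FPKM against 69.0, 49.2, 48.6 and 56.0, and the many-gene values lay close to the WT range of 55.5 to 76.1. Mest, a paternally expressed gene, had 0.0378, 0.158 and 0.212 FPKM against 18.4, 2.67, 18.9 and 6.15.

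**Figure D5:**
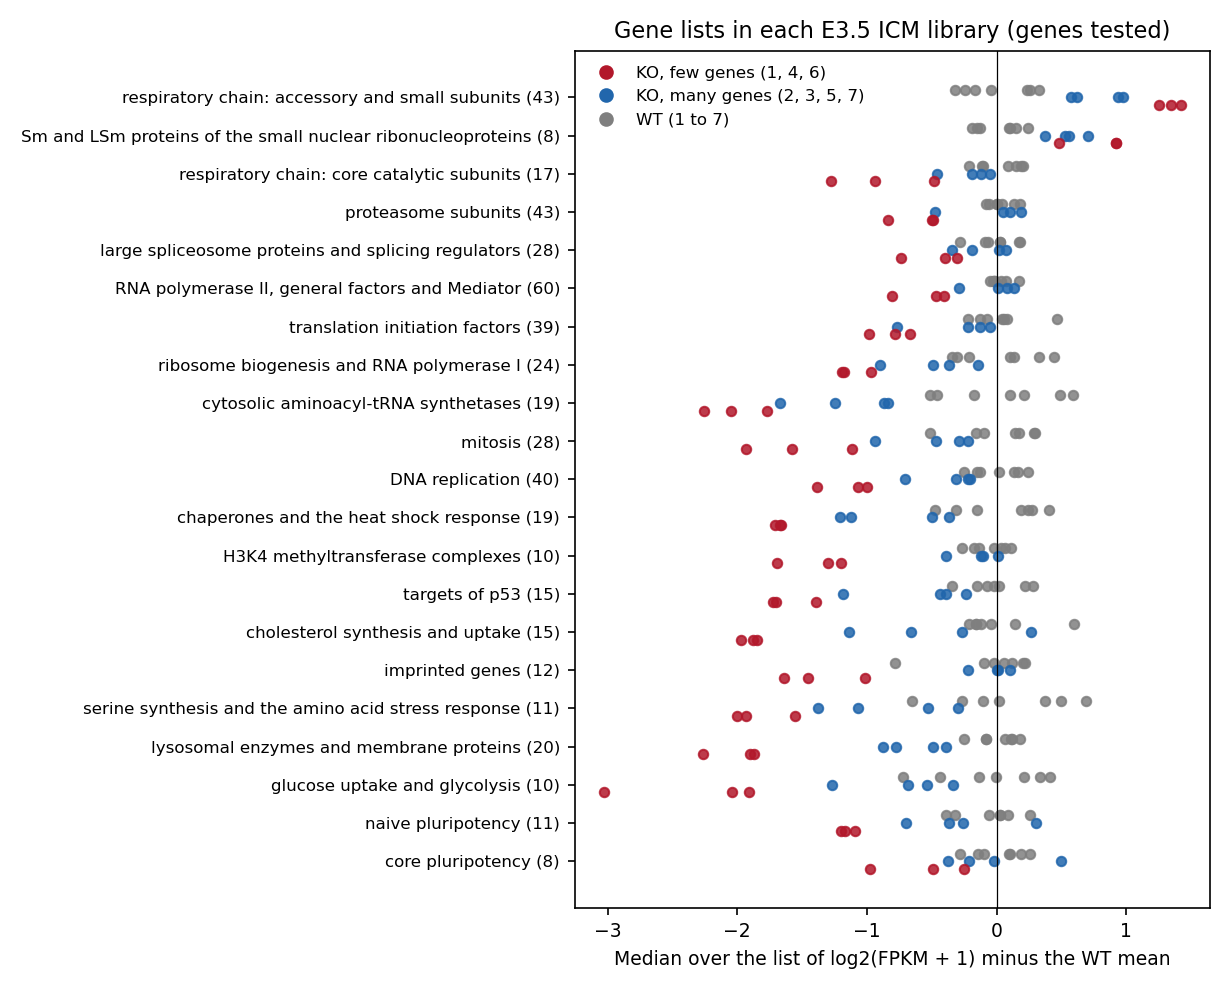
Median over each gene list of log2(FPKM + 1) minus the WT mean (x) in each E3.5 ICM library, 21 lists (y, with the number of genes tested). The few-gene points lie right of 0.98, the highest many-gene point, for the small respiratory subunits. They overlap the many-gene points in 4 lists (Sm and LSm proteins, splicing, translation initiation, core pluripotency) and lie left of them in the rest.

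Lineage genes were checked because the label is ICM. Summed FPKM of 14 naive pluripotency markers were 104 to 188 in the few-gene libraries, 206 to 394 in the many-gene libraries and 268 to 534 in WT. Naive markers had 3 of 11 tested below and 0 above (median -0.94), and the scaled counts were 0 and 1 below. Sox15, a partner of Oct4, had 10.9, 14.01 and 8.99 FPKM against 53.3, 56.5, 23.9 and 21.0. Nanog overlapped, with 52.5, 32.7 and 124.3 FPKM against 42.9, 106.4, 199.5 and 220.5 and WT at 112.8 to 349.7. Core pluripotency genes had 1 of 8 below, and their median of -0.41 became 0.17 and 0.07 under the scalings. Pou5f1, which encodes Oct4, had 56.4, 28.4 and 25.8 FPKM against 35.7, 20.9, 26.8 and 15.2, with WT at 20.3 to 81.7. Both Nanog and Pou5f1 were detected in all 7 KO libraries.

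Over 17 genes, primitive endoderm markers summed to 26.2 to 41.7 FPKM in the few-gene libraries and 75.5 to 86.0 in the many-gene libraries. WT sums were 68.8 to 271.4. Of these genes, 9 were under 1 FPKM in every few-gene library, 4 in every many-gene library and 4 in every WT library. Of 8 tested, 2 were below and 0 above (median -1.12). The scaled counts were 0 below and 0 above in both, with medians of -0.34 and -0.65. Gata6, the earliest factor of that lineage, had 15.1, 17.3 and 4.46 FPKM against 23.4, 30.7, 19.2 and 27.0. Markers of the trophectoderm, the outer layer that immunosurgery removes, summed to 166 to 335 FPKM, 186 to 886 and 177 to 1734 in few-gene, many-gene and WT libraries, over 20 genes. The median over 13 tested trophectoderm markers, -0.33, became 0.27 and 0.19 under the scalings, with 1 below and 0 above throughout. Its defining factor Cdx2 was at a mean of 0.15 FPKM in the few-gene set and 0.11 in the many-gene set. S100a6, on the same list, was at 502.8 FPKM in KO 3, against 19.9 to 131.8 in the other KO libraries, and contributed most of that upper value. Markers of blood and maternal tissue summed to 34.8 to 64.0, 17.5 to 60.7 and 20.03 to 43.0 FPKM over 6 genes. Hba-a1, an alpha globin with a near-identical copy, had 21.999, 40.6 and 3.44 FPKM in the few-gene libraries and 0.375 to 13.97 in the many-gene libraries. The part of cell make-up in the differences between the sets was not tested, and fewer cells of a type cannot be told apart from less RNA per cell.

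The 97 higher genes tended to be strong and short, with exceptions. Their median WT mean was 180.1 FPKM, against 16.6 for the 978 lower genes and 11.2 for all tested genes. Genes with a WT mean of 250 FPKM or more were above in 15.3% and below in 21.9% of 242 cases, with a median difference of -0.12. Of 965 genes at 5 to 10 FPKM, 0.415% were above and 18.4% below. Tested genes with a known genomic span were put in 5 bins of 948 genes by that span. From the shortest bin (median 4683 bp) to the longest (median 95953.5 bp), 44, 18, 12, 8 and 9 genes were above. Genes at 100 FPKM or more were also put in 5 bins by genomic span. Of 109 in the shortest bin (median 2809 bp), 20 were above and 21 below, and of 108 in the longest (median 32840 bp), 7 and 35. Their median differences were -0.06 and -0.57. The 12 highest by the fold rule were not all strong or short. C4a, Evi5, Lxn, Grsf1 and Lama5 had WT means of 4.21, 6.45, 7.96, 9.70 and 13.3 FPKM, and the rest 45.5 or more. Evi5 and Lama5 spanned 130313 and 49532 bp. These 12 also included Pfdn4, a subunit of the prefoldin chaperone, with a span of 22643 bp. It had 164.1, 152.6 and 131.9 FPKM against 69.2, 42.1, 53.01 and 48.7, WT being 35.3 to 54.9. Tmsb10, an actin-binding peptide, had 2322, 1970 and 1844 FPKM against 718, 1490, 789 and 670. Myeov2, a small protein bound to the COP9 signalosome, had 1148, 1499 and 915 against 718, 486, 506 and 507.

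A gene of the opposite kind was Gchfr, the feedback regulator of tetrahydrobiopterin synthesis, which had the widest gap of all named genes. It was listed at 0 in KO 1 and KO 6 and at 5.58 FPKM in KO 4, but had 45.3, 175.4, 11.4 and 35.9 FPKM in KO 2, 3, 5 and 7. WT had 0 to 10.02, so that here the few-gene embryos lay inside the WT range and the many-gene embryos above it. Of the 978 lower genes, 28 had a many-gene mean above the highest WT library, a smaller share than the 406 of 5003 over all tested genes.

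The labelled contrast, all 7 KO against all 7 WT libraries, was tested. Its groups come from the labels, but its counts of detected genes are the values that set the split. The test of those counts is therefore no independent support for the split. The 7 KO libraries averaged 1004 fewer genes at 1 FPKM or more than the 7 WT libraries, with SDs of 660 and 220 genes. The groups overlapped, with 5136 genes in KO 5 and 5110 in WT 3. An exact permutation test of the difference of means, two-sided over 3432 arrangements, gave p = 0.00117 (adjusted over 5 thresholds p = 0.00146). At 50 FPKM the difference was -193.3 genes with an exact permutation p = 0.000583, the smallest value these arrangements allow. By limma with Benjamini-Hochberg adjustment, 24.9% of 5443 genes were lower in KO and 3.44% higher (28.3% in all). The total of 1540 called genes became 946 without WT 1 and 987 without WT 4.

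Several lists moved in this contrast. Of 43 small respiratory subunits, 40 rose in KO (median 1.01, beside -0.65 for all genes). Cox6c rose by 1.31 (SE 0.22, adjusted p = 0.00219, limma), in 7 of 7 KO libraries. Of 19 aminoacyl-tRNA synthetases, 15 fell (median -1.39). Mars, which charges methionine, fell by 1.97 (SE 0.38, adjusted p = 0.00298, limma), in 7 of 7. Among the other lists, 13 of 21 lysosomal genes, 7 of 11 glycolysis genes and 7 of 17 cholesterol genes fell. Under quantile normalization and median ratio scaling the small subunits that rose were 35 and 43, and the genes that fell were 7 and 8 synthetases, 7 and 5 lysosomal, 4 and 2 glycolysis and 1 and 3 cholesterol genes. Of 15 trophectoderm markers, 5 also fell in KO ICMs and 0 rose (median -1.01). WT was uneven here. Over the 13 markers tested in the split, the library median relative to the WT mean was 1.98, 0.62 and 0.74 in WT 1, 3 and 4. It was -0.94, -0.72, -0.74 and -1.11 in WT 2, 5, 6 and 7, and -1.41 to -0.60 in the KO libraries. The part of trophectoderm markers in these differences was not tested.

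Some single genes named for the split crossed the threshold over all 7 libraries, and others did not. Uqcrc1 fell by 2.12 (SE 0.42, adjusted p = 0.00326, limma) and Aurka by 2.44 (SE 0.60, adjusted p = 0.00843), each in 7 of 7 KO libraries. Kif20a, Polr1b, Farsb and Ash2l also fell, and Cox7c, Lsm7 and Myeov2 rose, each in 7 of 7 and with an adjusted p of at most 0.00796 by limma. P2rx4 did not pass (log2 change -1.71, SE 0.73, adjusted p = 0.0792, limma). Nor did H13, Aurkb, Nanog, Sox15, Sdhd and Pole, with adjusted p from 0.0554 (H13) to 0.475 (Pole) by limma. Named genes were largely chosen by their values in the same KO libraries, so these calls are no independent support for the split.

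The 4 many-gene libraries set alone against WT give sizes only and no test, since they were chosen for the number of genes they detected. On the log2 scale the change was 0.90 for Cox6c, 0.87 for Cox7c, 0.95 for Lsm7, -1.54 for Mars, -1.26 for Uqcrc1, -1.12 for Aurka, -1.32 for Ash2l and 0.00 for P2rx4. In the 3 few-gene libraries it was 1.86, 1.77, 1.30, -2.55, -3.28, -4.20, -2.49 and -4.01 in the same order. Apart from P2rx4, these genes came from those that moved the same way in every KO library, so their shared sign was fixed in advance. Some other named genes changed sign between the many-gene and few-gene sets, such as Gchfr (4.04 and -0.51) and Pole (0.43 and -2.02).

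The libraries labelled E5.5 epiblast were KO embryos that the split had not touched, but their markers went against that label. Trophectoderm markers summed to 2694 to 4590 FPKM in the 3 KO libraries and 459 to 598 in the 3 WT libraries, over 20 genes, and of 19 tested 15 rose and 1 fell (median 3.97). Elf5, a factor of the trophoblast, had 31.6, 30.1 and 33.4 FPKM in KO and was listed at 0, 0 and 0.0451 in WT. Gata3, another such factor, had 241.4, 88.8 and 112.02 FPKM against 0.555, 0.129 and 0.596. Cdx2 was listed at 0 in all 3 WT libraries and in KO 1, and had 3.21 and 0.828 FPKM in KO 2 and KO 3. Core pluripotency markers summed to 598 to 944 FPKM in KO and 1637 to 1856 in WT over 9 genes, 6 of which fell and 0 rose. Pou5f1 had 4.57, 5.07 and 19.9 FPKM against 190.4, 126.0 and 103.4. Every E5.5 difference below stands beside these levels, and the part of cell make-up in it was not tested.

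The E5.5 libraries had 5457 to 5895 genes at 1 FPKM or more in KO and 5738 to 5805 in WT. Of 5956 genes tested by limma, 18.5% were lower in KO and 15.6% higher, 2032 in all (34.1%), a number that became 1205 without WT 1 and 1293 without WT 2. The 978 genes that lay lower in few-gene ICMs showed no such lean: of 946 tested, 16.2% were lower and 20.2% higher, with a median of -0.01. Of the 97 that lay higher in few-gene ICMs, 94 were tested, 5 were lower and 23 (24.5%) higher, with a median of 0.10. The overlapping genes had 16.5% lower and 15.5% higher of 3733.

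By group, the E5.5 calls went in several directions, in the same KO libraries that carried the trophectoderm markers. Of 21 lysosomal genes 11 rose and 2 fell, of 18 cholesterol genes 5 rose and 1 fell, and of 14 glycolysis genes 5 rose and 4 fell. Of 40 replication genes 9 fell and 1 rose. Of 43 small respiratory subunits 15 rose and 1 fell. Ndufb2 rose by 0.98 (SE 0.18, adjusted p = 0.00278, limma), in 3 of 3 KO libraries. P2rx4 rose by 1.32 (SE 0.32, adjusted p = 0.0101, limma), from a mean of 1.78 to 5.77 FPKM, and H13 by 1.499 (SE 0.22, adjusted p = 0.000875, limma), both above the WT mean in 3 of 3. Ldha fell by 0.71 (SE 0.16, adjusted p = 0.00703, limma), in 3 of 3. Mt2 and Tmsb10, higher in the few-gene ICMs, also rose at E5.5, by 1.38 and 1.12 (adjusted p = 0.00223 and 0.00168, limma). The 2 stages were not compared by a test of their difference.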

How the data were processed

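RNA libraries of single embryos were analysed from a table of FPKM that the authors deposited. The submitters' processing notes name the mm10 build, STAR 2.7.3 and Trim Galore 0.6.4 among their tools, with no step given for any of them. No label used here names the program that made the FPKM or says how reads with several matches were treated. Of 7186 lines, 4 with repeated names were left out, leaving 7182 genes. The methylome, H3K4me3 and ATAC samples and the E4.5 cells were not used here.

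The members and gene lists were chosen with earlier results of these data known. KO ICM libraries were split at 4000 genes of 1 FPKM or more. Few-gene and many-gene values were compared by means of log2(FPKM + 1) and by whether their ranges met, with no test, among genes averaging 1 FPKM or more. KO was compared with WT by limma 3.58.1 (R 4.3.3) with robust, trended variance shrinkage and Benjamini-Hochberg adjustment, called under 0.05 and checked on simulated data. The labels name single embryos, so p-values weigh a difference against variation between embryos. Same-numbered KO and WT libraries correlated at -0.13 to 0.16 in the ICM, so numbers were not taken as pairs. Alternatives were quantile and median ratio scaling, other pseudocounts (0.1 and 5), other filters (none, and 5 FPKM), a sex covariate, a replicate block, each set alone and each library left out. A comparison of the male KO libraries was added after the data were seen.

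Depth is not given with FPKM. Relative mapped fragments were estimated from low values (at most 0.5 FPKM) of the same gene in different libraries. The method was tested only on simulated whole counts, which the deposited values need not be. Genes named were the 12 with the largest difference each way among those whose ranges did not meet and whose higher mean was at least 10 FPKM, genes under 1 FPKM in one set and at 10 or more throughout the other, up to 4 per list of 33 lists, and the 6 steadiest strong genes. Any marker could also be named. Predicted, pseudogene and ribosomal protein names were left out. Promoter windows came from RefSeq GRCm38.p6, in which 6834 genes matched a symbol. Figures were drawn with matplotlib 3.10.9.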

Additional observations from a re-analysis of the deposited data

Results flagged for a closer look

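Among 102 sets of 7 libraries looked at, 9 had a library standing apart from the other 6 by Dixon's criterion, which by its definition marks about 1 in 20 sets by chance. The sets share libraries, and the number was not tested against that rate. In KO these were Birc5 in KO 4 (8.50 on the log2(FPKM + 1) scale, 361 FPKM) and Gata6 in KO 6 (2.45, 4.46 FPKM). In WT they were Pgam2, Psma7, Pole and Mest in WT 6 (2.44, 9.40, 4.52 and 1.74), P2rx4 in WT 2 (3.33), and Aurka and Hcfc1 in WT 5 (5.68 and 5.02).

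For 5 named genes every KO library moved 1 way from the WT mean in the ICM and every KO library the opposite way at E5.5, and the difference was not tested. The KO libraries labelled E5.5 epiblast carried trophectoderm markers at 2694 to 4590 summed FPKM, against 459 to 598 in WT. The log2 changes in KO against WT were 1.26 in the ICM and -0.35 at E5.5 for Cox7c, -2.12 and 0.51 for Uqcrc1, -2.26 and 1.46 for Slc2a1, 1.10 and -0.16 for Lsm7, and -1.82 and 0.67 for Ash2l.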

How the results depend on the processing

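The split compares 3 with 4 libraries chosen by a readout, its depth estimate could be off by a factor of 2, and FPKM give no counting error, so low values are the least certain. The median few-minus-many difference of -0.64 became -0.94 and -0.34 with pseudocounts of 0.1 and 5, -0.43 with no filter, -0.021 after quantile normalization and -0.17 after median ratio scaling. Lower genes numbered 598 with a filter of 5 FPKM, 399 and 541 under the scalings and 1726 among male libraries, and higher genes 354, 363 and 173. Leaving out each KO library gave 1021 to 1552 lower genes, 108 to 243 higher genes and medians from -0.74 to -0.58. For KO against WT in the ICM, the 1540 calls became 671 under quantile normalization, 876 under median ratio scaling, 405 with only the many-gene libraries, 2696 with only the few-gene libraries (both chosen by a readout, so these counts are no independent test), and 946 to 1875 without each library in turn. At E5.5, leaving out each library gave 1205 to 2185. The number of genes detected differed by -1128 to -876.9 without each library, always with an exact permutation p of at most 0.00524. Same-numbered samples did not pair: a replicate block gave 1221 ICM calls, 1950 E5.5 calls and a sign-flip permutation p of 0.0156 for detected genes, and 2 of 7 ICM libraries correlated best with their own number. For named genes, 124 of 1917 few-minus-many values moved by more than the spread between libraries, and in the ICM 362 of 3288 tests lost a call and 115 gained one.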
